A study of Mus musculus with 3 samples.

Results

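Imprinted growth genes were followed through the cell types of the mouse small intestine before and after birth. The genes are Igf2, H19, Dlk1, Meg3, Mest, Peg3, Plagl1, Cdkn1c, Grb10 and Ndn, a list of 10 chosen by name out of 22100 genes in the count tables, and all 10 had counts in each library. The animals were wild type and untreated, and whole small intestine was taken at the embryonic stages E15.5 and E17.5 and on postnatal day 7 (P7). Each stage is 1 droplet library read from the 3′ end of transcripts, with no mutant, no treated group and no second library, and the number, sex and strain of the animals behind a library are not given in the sources used here. Viable cells had been sorted as Epcam-positive, or as negative for Epcam, CD31 and CD45, so the sort set the share of epithelial cells and took out most endothelial and blood cells.

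Imprinted genes are transcribed mainly from the chromosome inherited from 1 parent. Several of them form a network that controls fetal growth: many paternally expressed members promote growth and many maternally expressed members restrain it, and the network is known to be turned down in many organs after birth. The counts do not tell the parental alleles apart, so every level here is the sum of both. Igf2 encodes a secreted growth factor of the insulin family and lies beside H19, a long noncoding RNA expressed from the opposite parental chromosome and driven by enhancers that the pair shares. Dlk1, a membrane ligand of the EGF-repeat family, and the noncoding RNA Meg3 form a second such pair.

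In GRCm38 (GENCODE vM21) Igf2 spans chr7:142650766-142666816 on the minus strand, and H19 lies 72.62 kb away at chr7:142575529-142578143 on the same strand. Cdkn1c, 791.5 kb from Igf2, spans chr7:143458339-143461050 on the minus strand. Dlk1 spans chr12:109452823-109463336 and Meg3, 77.66 kb further on, chr12:109541001-109571726, both on the plus strand. The others are Mest at chr6:30723547-30748465 (plus), Peg3 at chr7:6703892-6730431 (minus), Ndn at chr7:62346569-62350262 (plus), Plagl1 at chr10:13060504-13131694 (plus) and Grb10 at chr11:11930508-12038683 (minus). H19 and Meg3 are annotated as long intergenic noncoding RNAs and the other 8 as protein-coding. Igf2, Mest and Cdkn1c overlap genes of the opposite strand that are also in the tables (Igf2os; Gm44296 and Copg2; Gm44732), and whether the counting used strand is not given in the sources used here.

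Promoter windows in the RefSeq table (build GRCm38.p6) matched 8 of the 10 genes, with none for H19 or Cdkn1c. The windows of Meg3 and Peg3 are printed because both genes were higher in neuronal-like cells after birth, and that of Dlk1 because it is the neighbour of Meg3 and was not. Each is the 250 bases before the RefSeq start, and capitals mark matches, on either strand, to GGGGCCCC (a core bound by PLAGL1-type zinc fingers), TGACGTCA (the cAMP response element), TATAAA and GGGCGG (the GC box).
Meg3, chr12:109540746-109540995, plus strand: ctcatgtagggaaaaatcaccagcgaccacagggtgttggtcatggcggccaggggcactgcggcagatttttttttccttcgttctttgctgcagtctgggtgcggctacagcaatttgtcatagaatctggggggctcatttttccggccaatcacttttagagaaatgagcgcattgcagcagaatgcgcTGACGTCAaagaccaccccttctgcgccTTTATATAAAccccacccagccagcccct
Dlk1, chr12:109452573-109452822, plus strand: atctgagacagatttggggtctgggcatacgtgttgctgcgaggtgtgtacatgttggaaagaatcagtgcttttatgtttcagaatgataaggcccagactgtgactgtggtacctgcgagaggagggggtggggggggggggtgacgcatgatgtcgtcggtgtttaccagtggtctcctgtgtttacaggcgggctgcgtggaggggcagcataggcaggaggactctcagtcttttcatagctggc
Peg3, chr7:6730420-6730669, minus strand: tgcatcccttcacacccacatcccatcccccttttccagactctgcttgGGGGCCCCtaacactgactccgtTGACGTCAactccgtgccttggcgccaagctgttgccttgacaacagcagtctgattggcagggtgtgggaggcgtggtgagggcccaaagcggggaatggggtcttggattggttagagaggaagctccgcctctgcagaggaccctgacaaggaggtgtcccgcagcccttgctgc
TGACGTCA was in the Meg3 and the Peg3 window and in 1.55% of all 32851 windows of this length. The Meg3 window also held TATAAA, as 2 overlapping matches on opposite strands, which 12.4% of windows hold, and the Peg3 window held GGGGCCCC, which 0.889% hold. GGGCGG, present in 32.7% of windows, was in neither, and the Dlk1 window held no match to these 4 motifs. A second Meg3 window in the table, chr12:109545148-109545397, held no match either, nor did the window of Ndn, the other gene higher in neuronal-like cells, which lies within its GENCODE model (chr7:62348027-62348276). Both are left unprinted. These motifs were chosen with the sequences in view, and a match is a description only.

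The libraries held 8447, 11598 and 8391 cells at E15.5, E17.5 and P7 with 93501273, 94023160 and 116038115 molecules (UMIs, unique molecular identifiers), and 8204, 11145 and 8002 cells were kept after removal of likely doublets. The same 8447 barcode names are listed for all 3 libraries, also where the count table holds another number of cells, so barcodes could not show whether libraries share cells. Names of cell types rest on marker genes, and stand for resemblance to the type. Fibroblast-like cells numbered 3516, 4846 and 890, smooth-muscle-like cells 1589, 1342 and 551, neuronal-like cells 664, 889 and 176 and glial-like cells 375, 1032 and 66. Epithelial-like cells numbered 1288, 1540 and 6047. Cells resembling interstitial cells of Cajal numbered 412, 392 and 23, and pericyte-like cells 186 and 466, with no P7 cluster of that name. Cells resembling acinar cells of the pancreas numbered 62 at E15.5 and 20 at P7, with no E17.5 cluster of that name.

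Levels are CPM, the UMIs of a gene per 1000000 UMIs summed over a cell type, with exact Poisson intervals at 95% in brackets. Ratios are later over earlier on the log2 scale of CPM. Both cover counting error only, since 1 library per stage leaves no replicate check and no test between stages. A gene was called higher or lower when its mean level in the pair was at least 10 CPM, the ratio was at least 2-fold and the counting interval of the ratio lay on 1 side of equality. A gene could pass the filter on low values through its level at 1 stage alone. The share of all genes called by the same rule, filter included, is given as the background. CPM are not compared between genes. In a droplet library a level can reflect free RNA, so each was also set against the level that free RNA would give, estimated from genes the cell type should lack.

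In adventitial-like fibroblasts at P7, a kind of 118 cells, Igf2 and H19 were high for that stage, while the other mesenchymal and neural types with at least 50 cells were at 49.3 CPM of Igf2 or less. Igf2 was 385 CPM (341 to 432) there, against 62.9 (60.7 to 65.1) in enterocyte-like cells, the next in order, and H19 was 849 CPM (783 to 919) against 181 (177 to 184). Of the 11 named cell types with at least 50 cells at P7, adventitial-like fibroblasts had the highest point value for 8 of the 10 genes, and neuronal-like cells had it for Meg3 and Ndn. Left out of this order were 276 fibroblast-like and 487 epithelial-like cells of no named kind and 229 unnamed cells. For Mest, Plagl1 and Grb10 the interval overlapped that of the next type, so no order is given at the top.

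**Figure D1:**
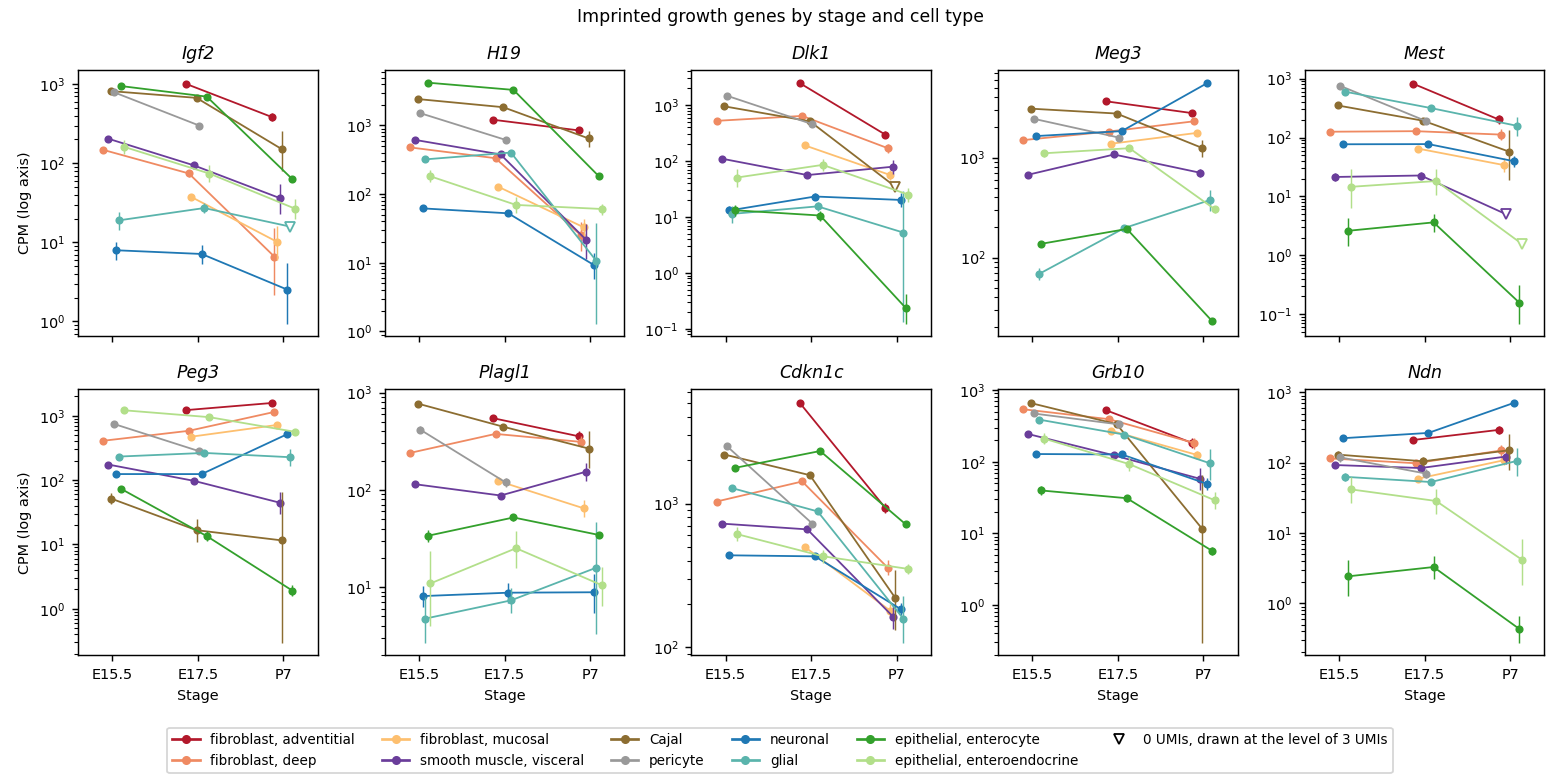
Level of each of the 10 genes (vertical axis, CPM on a log scale) at E15.5, E17.5 and P7 (horizontal axis), 1 panel per gene and 1 colour per cell type. Points are sums over the cells of a type in 1 library, bars are 95% counting intervals, and open triangles are types with 0 UMIs, drawn at the level of 3 UMIs. Adventitial-like fibroblasts at P7 keep 385 CPM of Igf2 and 849 CPM of H19, while deep fibroblasts are at 6.59 and 25.0 CPM.

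The adventitial-like name rests mainly on P7. At P7 its cells held Clec3b at 1021 CPM, Cd34 at 521 CPM, Ly6a at 279.8 CPM and Pi16 at 109 CPM, whereas deep fibroblasts had Clec3b at 219 CPM and no UMI of Pi16 or Ly6a. At E17.5, where 256 cells carried the name, Pi16 was 6.14 and Ly6a 14.1 CPM. The 9 adventitial markers summed to 967 CPM at E17.5, with 3 over 50 CPM and none among the 10 leading genes, while the 5 deep markers summed to 1339 and the 7 chemokine markers to 1344 CPM in the same cells. At P7 these sums were 2696, 1495 and 1745 CPM. Whether the clusters of the 2 stages hold the same kind of cell is therefore not settled, and each E17.5 to P7 value of this kind carries that limit. In the P7 cells the 12 fibroblast markers summed to 75519 CPM. Beside that the sums of other types were smaller: 492 CPM for the 10 pericyte markers, 1559 for the 11 smooth muscle markers and 84.1 for the 8 mesothelial markers, 6 of them at 0. The 10 epithelial markers summed to 364 CPM at P7 and 38.1 CPM at E17.5, and their part in the levels was not tested.

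Igf2 marked this kind sharply among the fibroblasts of P7. The 118 adventitial-like cells were 58.3 times (24.7 to 181) deep fibroblasts and 37.8 times (23.2 to 65.9) mucosal fibroblasts in Igf2. For H19 the ratios were 33.9 (21.5 to 56.7) and 25.8 (19.6 to 34.7). The 276 fibroblast-like cells of no named kind are in none of these ratios. They held 28 Igf2 and 28 H19 UMIs, against 279 and 616 in the adventitial-like cells and 5 and 19 in deep fibroblasts. At least 1 Igf2 UMI was seen in 56.8% (47.3 to 65.9%) of adventitial-like cells, with median depth 5971.5 UMIs, in 1.86% of the 161 deep fibroblasts, at 4639 UMIs, and in 2.09% of the 335 mucosal ones, at 4526 UMIs. Thinned to 2000 UMIs per cell these shares were 39.5%, 0.879% and 1.23%. The Igf2 signal was spread over cells, the highest of them holding 6.09% of the UMIs, and it stood 319 times above the free RNA estimate.

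Whether these cells form a cluster of their own depended on the clustering. With each library clustered alone, 87 to 126 cells carried the name at P7 under the other settings, with Igf2 between 367 and 480.1 CPM and H19 between 813 and 1101 CPM. With the 3 libraries clustered together, 3 cells did, and 115 of the 118 fell into a cluster of 938 cells with a mucosal name, in which Igf2 was 64.1 and H19 142 CPM.

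Other members separated the fibroblast kinds less. At P7 Cdkn1c was 2.61 times (2.27 to 3.02) as high in adventitial-like as in deep fibroblasts, Ndn 1.96 times (1.55 to 2.49) and Dlk1 1.75 times (1.40 to 2.19). The Plagl1 ratio was 1.14 (0.954 to 1.37) and the Grb10 ratio 1.01 (0.788 to 1.29), both with intervals that include equality. Mucosal fibroblasts, named from markers such as Adamdec1, Fgf7 and Edil3, were the lower of the 3 kinds for 8 of the 10 genes, and for Plagl1 they held 64.5 CPM (53.0 to 77.9) against 311 (273 to 353) in deep fibroblasts. Igf2 and H19 did not separate the deep from the mucosal kind, with ratios of 0.649 (0.187 to 1.83) and 0.762 (0.427 to 1.30).

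Across birth, 4 of the 10 genes were lower in fibroblast-like cells as a whole, where 2.41% of genes were called lower, and 0 were higher, where 6.89% were. The 4 were H19 (-1.12), Dlk1 (-1.86), Cdkn1c (-1.93) and Grb10 (-1.23). The median over the 10 was -0.85, beside 0.12 over all genes tested. Igf2 had a ratio of -0.85 in the whole class and -2.52 without the adventitial-like cells, and H19 -3.43 without them, so the class value for this pair rested largely on 118 of 890 cells. Peg3 (0.95) and Ndn (0.88) had higher levels at P7 that stayed under 2-fold. Both were called higher when the threshold was set at 1.5-fold, which 17.0% of genes then passed.

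The same step was then taken within each fibroblast kind. Deep fibroblasts, named from markers such as Ogn, Chrdl1, Sfrp1 and Cxcl12, had 5 genes lower (background 4.96%). Their Igf2 levels over the 3 stages were 148 CPM (140 to 156), 74.3 (67.5 to 81.7) and 6.59 (2.14 to 15.4), and their H19 levels 480, 334 and 25.0 CPM. In mucosal fibroblasts 5 genes were lower (background 2.06%), with Igf2 at 37.4 CPM (33.8 to 41.3) at E17.5 against 10.2 (5.92 to 16.3) at P7. The mucosal name covers unlike mixes across birth. Its 6 mucosal markers summed to 2544 CPM at E17.5 and 8722 at P7, and the 7 chemokine markers to 3664 and 1125. The part of this difference in the mucosal levels was not tested. In adventitial-like cells 5 were lower too (background 5.67%). Igf2 was among them, at 38.2% (33.5 to 43.4%) of its E17.5 level, and H19 was not, at 70.0% (63.9 to 76.7%).

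**Figure D2:**
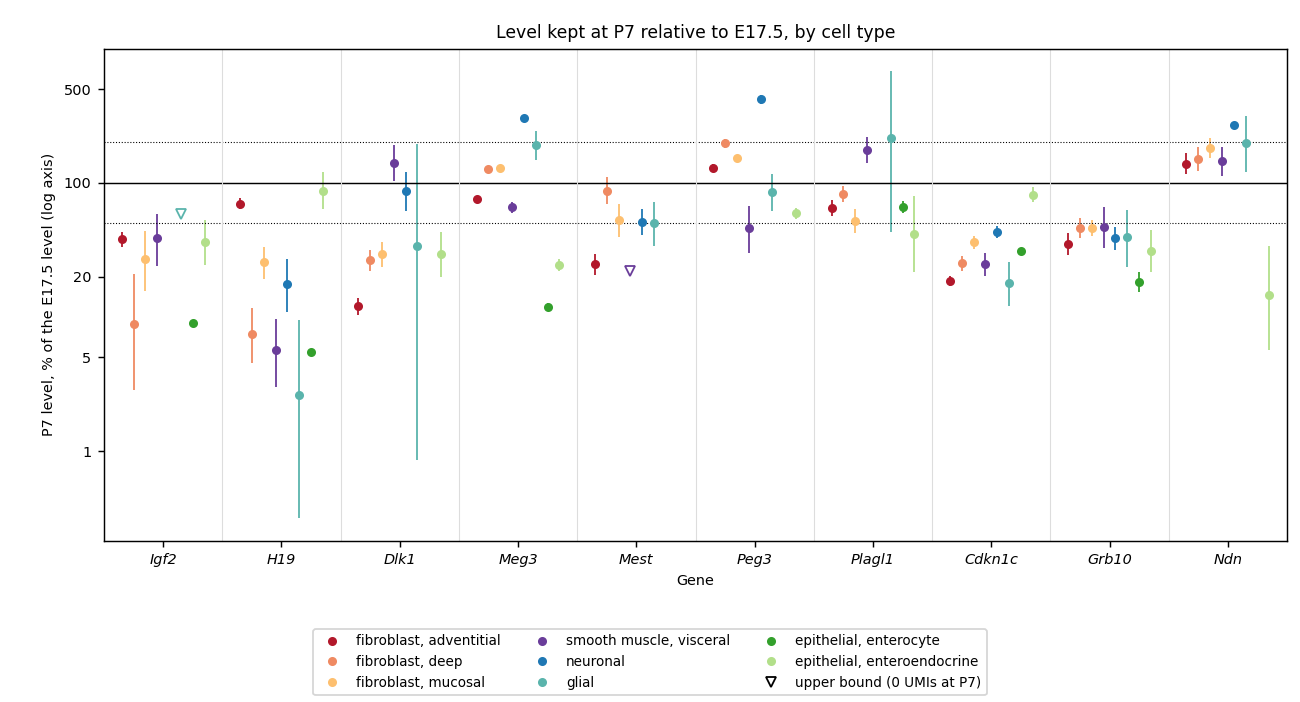
Level at P7 as a percentage of the level at E17.5 for each gene and cell type (log axis), with 95% counting intervals, 1 library per stage. H19 sits lower in deep and mucosal fibroblasts than in adventitial-like ones (70.0%), Igf2 sits at 38.2% in adventitial-like and 27.1% (15.7 to 44.0%) in mucosal ones, and Meg3 (303%), Peg3 (418%) and Ndn (268%) sit high in neuronal-like cells. Dotted lines mark a 2-fold change, and open triangles are upper bounds where a type had 0 UMIs at P7.

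Dlk1, which is known for holding back fat cell differentiation, was lower at P7 in each fibroblast kind. It was 2483 CPM (2407 to 2561) at E17.5 against 298 (259 to 340) at P7 in adventitial-like cells, and 642 and 170 CPM in deep fibroblasts. At E17.5 the fibroblast kinds already differed widely in Dlk1: adventitial-like cells were highest and subepithelial fibroblasts, at 55.1 CPM (46.3 to 65.1), lowest. Its neighbour Meg3 did not follow it. Meg3 was 1494, 1820 and 2305 CPM in deep fibroblasts and 3646 (3554 to 3740) and 2783 (2663 to 2907) in adventitial-like ones, none of these steps past 2-fold. The ratio of Meg3 to Dlk1 UMIs therefore went from 1.47 (1.41 to 1.53) to 9.35 (8.12 to 10.8) in adventitial-like cells across birth and from 2.84 to 13.6 in deep fibroblasts.

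The growth restrainers were lower in fibroblasts as well. Cdkn1c encodes a cyclin-dependent kinase inhibitor that holds cells out of division, and its level in adventitial-like cells was 5022 CPM (4914 to 5132) at E17.5 against 933 (864 to 1006) at P7. In deep fibroblasts Cdkn1c was 1033, 1423 and 357 CPM over the 3 stages. Grb10, an adaptor that binds the insulin and IGF receptors and dampens their signal, was 522 and 183 CPM in adventitial-like cells and 539.8, 393 and 182 CPM in deep fibroblasts. The division genes Mki67 and Top2a were 3.95 and 3.95 CPM in deep and 11.0 and 17.9 CPM in adventitial-like fibroblasts at P7, and 455 and 585 CPM in mucosal ones.

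Mest, which encodes a protein of the alpha/beta hydrolase fold, was 821 CPM (778 to 866) at E17.5 against 203 (171 to 238) at P7 in adventitial-like cells, while deep fibroblasts held 125, 128 and 112 CPM. Plagl1, a zinc-finger transcription factor placed upstream of other imprinted genes, was 239, 376 and 311 CPM in deep fibroblasts and was not called at any step there. Peg3, a large zinc-finger protein, was 409, 584 and 1148 CPM in deep fibroblasts, the P7 level being the highest of the 3. Ndn, a MAGE-family protein linked to cell-cycle exit, was 115, 98.2 and 149 CPM in deep fibroblasts.

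Between E15.5 and E17.5, 0 of the 10 were called in either direction in fibroblast-like cells, a count close to the background of 6.14%. The median ratio was 0.31 over the 10 and -0.12 over all genes tested. Meg3 went from 1249 to 1829 CPM, Peg3 from 357 to 522 CPM and Grb10 from 460.4 to 348 CPM, all under 2-fold. At 1.5-fold 2 of the 10 were called, also close to the background of 19.3%. The fibroblast class held no adventitial-like or mucosal cluster at E15.5, so the mix of kinds differed between these stages.

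In the smooth-muscle-like class most of the list was lower after birth. There 9 of the 10 genes were lower at P7 (background 5.1%) and 0 were higher (background 15.7%), and Ndn alone was not called. The class did not hold the same muscle at both stages, 461 of its 551 P7 cells being of an elastin-rich kind. The leading genes of that kind held Eln and Igfbp7, which led no embryonic muscle cluster, and also Acta2 and Myh11, which led those too. By marker score its P7 clusters had pericyte as second class (4.40, 3.25 and 3.59, against 5.80, 6.62 and 5.80 for smooth muscle). Visceral smooth muscle, the contractile layer marked by Actg2 and Des, was therefore followed by itself, with 796, 945 and 90 cells. There 6 of 10 were lower (background 3.81%), the median being -1.10 over the 10 and 0.19 over all genes tested.

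In visceral muscle Igf2 was 204 CPM (194 to 215), 94.0 (87.7 to 101) and 36.4 (22.8 to 55.1) over the 3 stages, and H19 was 616, 378 and 21.5 CPM (11.4 to 36.8). The P7 level of H19 was 2.34 times the free RNA estimate and that of Igf2 11.3 times. Mest had 199 UMIs at E17.5 and 0 at P7, which against a floor of 3 UMIs in the P7 sum is at least 4.57-fold lower. Cdkn1c was 725, 661 and 164 CPM (133 to 199), Peg3 174, 97.4 and 44.6 CPM and Grb10 243, 123 and 57.9 CPM. The other 4 genes, Dlk1, Meg3, Plagl1 and Ndn, were not called lower in visceral muscle. Plagl1 was 114, 87.4 and 154 CPM (124 to 188) and Dlk1 110.5, 56.2 and 79.4 CPM (58.5 to 105).

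The elastin-rich muscle cells of P7 also had 0 UMIs of Mest, and their H19 and Grb10 levels had intervals of the ratio to visceral muscle that include equality. They differed most in Dlk1 and Plagl1. They held Dlk1 at 0.524 CPM (0.0133 to 2.92), which is 1 UMI, and Plagl1 at 10.5 CPM (6.40 to 16.2), against 79.4 and 154 CPM in visceral muscle of the same library. Cdkn1c was 45.6 CPM in them against 164 in visceral muscle, a ratio of 0.279 (0.206 to 0.375). The ratios of Peg3 (0.564), Ndn (0.681) and Meg3 (0.721) also had intervals below equality. Igf2 was 49.3 CPM (39.8 to 60.3) in elastin-rich and 36.4 in visceral muscle, with a ratio of 1.35 (0.844 to 2.26). Epithelial markers summed to 699 CPM in visceral muscle at P7, with 5 of 10 over 50 CPM, and to 28.9 CPM at E17.5. Their part in these levels was not tested.

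H19 and Igf2 did not keep their proportion in muscle. In visceral muscle the H19 UMIs per Igf2 UMI were 3.02 (2.85 to 3.20) and 4.02 (3.73 to 4.35) at the embryonic stages but 0.591 (0.273 to 1.23) at P7. In elastin-rich muscle the P7 ratio was 0.277 (0.172 to 0.431). In enterocyte-like cells the ratio was 4.44 (4.31 to 4.58), 4.74 (4.61 to 4.87) and 2.87 (2.76 to 2.99) over the same stages, lower at P7 but above 1. In adventitial-like fibroblasts the ratio was higher at P7, 2.21 (1.91 to 2.55), than at E17.5, 1.20 (1.13 to 1.29). At E15.5 and E17.5 glial-like cells stood apart with 16.9 and 14.9.

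**Figure D3:**
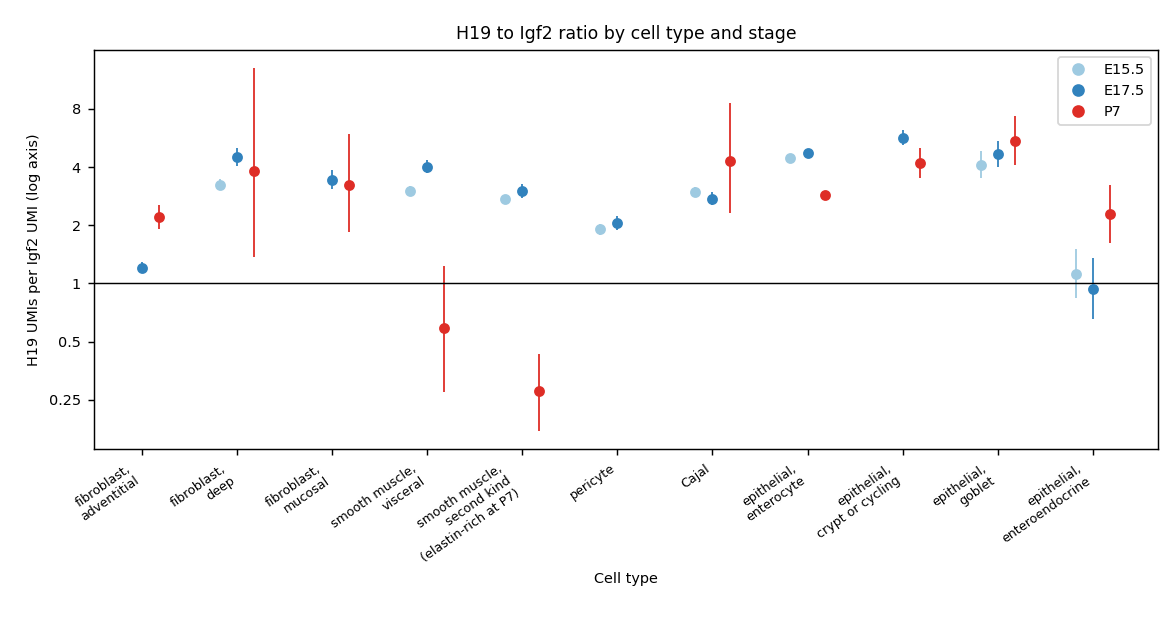
H19 UMIs per Igf2 UMI (log axis) by cell type and stage, with exact 95% counting intervals. At P7 elastin-rich muscle (0.277) lies below 1 and visceral muscle (0.591) has an interval that includes 1, while enterocyte-like cells (2.87) and adventitial-like fibroblasts (2.21) lie above 1.

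Between E15.5 and E17.5, 6 of the 10 genes were called lower in the muscle class (background 6.43% lower, 9.01% in either direction), but 1 in visceral muscle alone (background 4.52%) and 0 in the second muscle kind (background 6.97%). The second kind was 793 of 1589 cells at E15.5 and 257 of 1342 at E17.5. It carries the elastin-rich name by its score only: before birth its 7 visceral markers summed to 1556 and 4035 CPM and its 6 elastin-rich markers to 821 and 995 CPM, against 1699 and 7271 CPM at P7, so it is left unnamed there. Dlk1 in it was 969 CPM at E15.5 against 110.5 in visceral muscle. The part of this mix of kinds in the class count was not tested.

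Epithelial-like cells carried high levels of Igf2 and H19 before birth and far less at P7. Of the 7 genes that passed the filter on low values, 6 were lower at P7 (background 3.0%) and 0 were higher (background 7.89%). Enterocyte-like cells, the absorptive cells, held Igf2 at 946 CPM (921 to 973), 696 (679 to 714) and 62.9 (60.7 to 65.1), and H19 at 4205, 3299 and 181 CPM. At E15.5 these were the highest Igf2 and H19 levels of the 11 cell types compared. Since this type is 2859 of 8002 kept cells at P7, it still held 78.4% of the library's Igf2 UMIs and 79.1% of its H19 UMIs, while adventitial-like fibroblasts, 1.47% of the cells, held 6.86% of the Igf2 UMIs.

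Cdkn1c was called lower at P7 in absorptive cells too, from a high level. In enterocyte-like cells it was 1767 CPM (1732 to 1803), 2318 (2286 to 2350) and 716 (709 to 723). The last was second highest of the 11 P7 cell types compared, after adventitial-like fibroblasts. In crypt or cycling cells, the dividing cells of the epithelium, it was 173 CPM (162 to 185) at E17.5 against 14.7 (13.3 to 16.2) at P7. This name covers unlike mixes across birth. Its 8 crypt or cycling markers summed to 1771 CPM at E17.5 and 4508.5 at P7, and the 10 enterocyte markers to 2319 and 2243. The part of this difference in the levels was not tested. The P7 ratio of enterocyte-like to crypt or cycling cells was 48.7 (44.2 to 53.8) for Cdkn1c, 11.1 (9.46 to 13.1) for Igf2, 7.60 (7.03 to 8.24) for H19 and 4.57 (3.96 to 5.29) for Plagl1. Grb10 and Peg3 went the other way, at 0.355 (0.305 to 0.412) and 0.417 (0.317 to 0.547).

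The 8 enterocyte-like clusters of P7 were not alike. One of 292 cells had Cdkn1c at 29.4 CPM, Igf2 at 2.39 CPM and H19 at 17.6 CPM. In the other 7, Cdkn1c ran from 528 to 1325 CPM, Igf2 from 28.1 to 124 CPM and H19 from 84.0 to 304 CPM. The cluster with the most Igf2 (387 cells) was not the one with the most H19 and Cdkn1c (345 cells).

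Within each epithelial kind most of the tested genes were lower at P7: 5 of 6 in enterocyte-like cells (background 5.73%), 7 of 7 in crypt or cycling cells (background 3.0%) and 6 of 7 in goblet-like cells (background 2.97%). Some passed the filter through E17.5 alone, being under 10 CPM at P7. These were Igf2, Meg3, Peg3 and Plagl1 in crypt or cycling cells, Igf2, Meg3 and Grb10 in goblet-like and Grb10 in enterocyte-like cells. Plagl1 was the gene not called in enterocyte-like cells, at 33.7, 52.0 and 34.3 CPM, and also in goblet-like cells. The goblet-like name covers unlike mixes. Its 6 Paneth cell markers summed to 6206 CPM at E17.5 and 41160 at P7, and its 8 goblet markers to 54270 and 66433. The part of this difference in the goblet-like count was not tested. In crypt or cycling cells, whose name carries the limit given above, Igf2 was 127 CPM (118 to 137) at E17.5 against 5.68 (4.83 to 6.62) at P7. Before birth 2 of 8 tested genes, Dlk1 and Peg3, were called lower from E15.5 to E17.5 in the epithelial class (background 1.61%). Neither was called with likely doublets kept or with the libraries clustered together. In the class 5 were called in either direction at 1.5-fold (background 17.7%). In enterocyte-like cells alone 1 was lower (background 2.96%), Peg3, at 72.9 and 13.5 CPM.

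Enteroendocrine-like cells, the hormone-secreting cells of the epithelium, had a profile of their own, with 53, 110 and 236 cells. Clps, an acinar marker, was among their leading genes at E15.5 and E17.5, and the 7 acinar markers summed to 3269 CPM at E15.5. Whether pancreatic cells are among them was not tested. Peg3 was 1219 CPM (1128 to 1315), 952 (889 to 1019) and 563 (530.2 to 598), and Meg3 was 1103, 1239 and 303 CPM. At P7 Peg3 was 295 times (239 to 366) as high as in enterocyte-like cells, Dlk1 106 times (55.6 to 220) and Meg3 13.2 times (11.9 to 14.6). Peg3 UMIs were in 83.9% of these cells. Across birth 6 of 9 tested genes were lower (background 4.15%), and Peg3, at -0.76, was not among them. H19 in them at P7 came mainly from 1 cell, which held 56.0% of the UMIs.

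**Figure D4:**
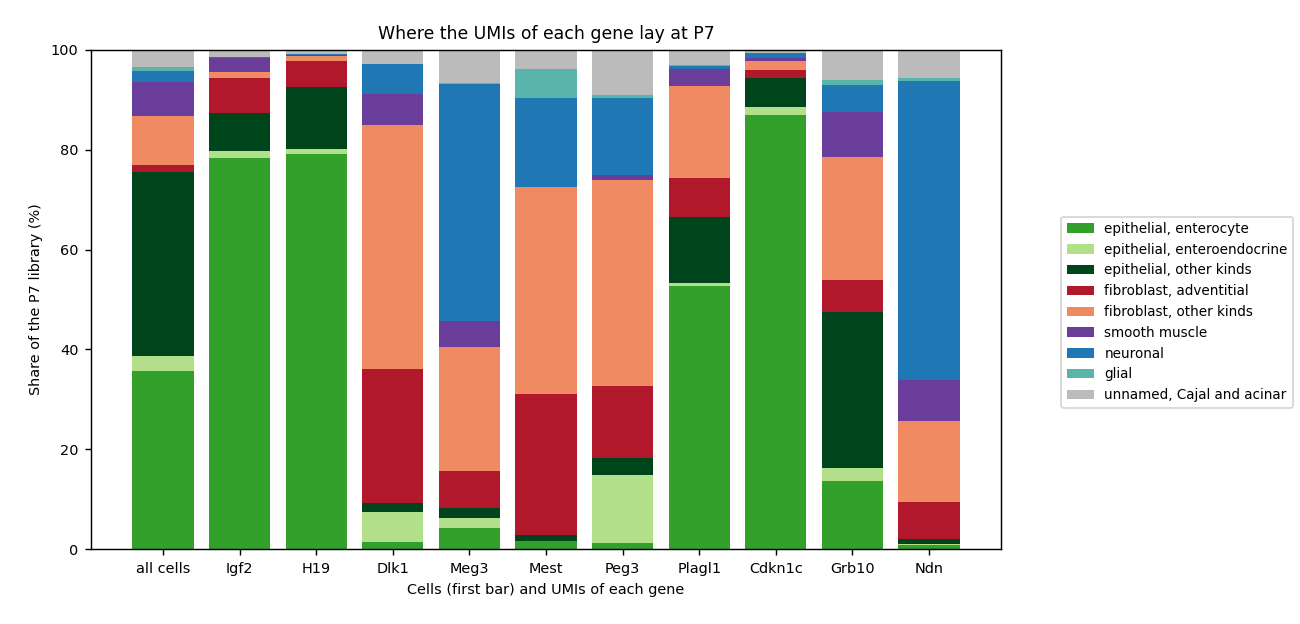
Share of each gene's UMIs in the P7 library by cell type, in percent, beside the share of cells. Enterocyte-like cells hold most of Igf2, H19 and Cdkn1c, neuronal-like cells 47.6% of Meg3 and 59.8% of Ndn, and fibroblast-like cells most of Dlk1, Mest and Peg3.

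In neuronal-like cells 3 of the 8 tested genes were higher at P7, where 13.3% of genes were called higher, and 3 were lower, where 3.97% were. Meg3 was 1639 CPM (1610 to 1668), 1837 (1807 to 1867) and 5560 (5465 to 5655). Peg3 was 124, 124 and 518 CPM (490.0 to 548), and Ndn, which is known for its expression in postmitotic neurons, was 223, 265 and 709 CPM (675 to 744). Each of the 3 sat at a like level at both embryonic stages and well above it at P7, with ratios of 1.60, 2.06 and 1.42. Between E15.5 and E17.5, 0 of the 8 were called (background 2.39%), and 1 at 1.5-fold (background 7.7%). Mest, at 76.8, 77.3 and 39.6 CPM, was not called at P7 (-0.97).

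These 3 genes were high in each of the 3 P7 neuronal clusters, of 64, 57 and 55 cells: Meg3 was 5743, 5615 and 5141 CPM, Ndn 643, 817 and 692 CPM and Peg3 617, 468 and 399 CPM. Cdkn1c was uneven, at 355 CPM (320 to 392) in the cluster of 64 cells, 52.5 CPM (37.3 to 71.7) in that of 57 and 37.0 CPM (22.9 to 56.6) in that of 55. Over all neuronal-like cells Cdkn1c was 436, 429 and 184 CPM and Grb10 128, 126 and 48.8 CPM, both called lower at P7. The third gene called lower was H19, at 61.9, 52.5 and 9.26 CPM, which are 2.22, 4.01 and 1.89 times the free RNA estimate. Igf2, at 7.94, 7.13 and 2.53 CPM, was 1.17, 2.19 and 1.47 times that estimate and did not pass the filter on low values. Neuronal-like cells were 2.20% of P7 cells and held 47.6% of the library's Meg3 UMIs and 59.8% of its Ndn UMIs.

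Glial-like cells, the support cells of the enteric nervous system, shared the lowering of Cdkn1c but not the Meg3 level. Cdkn1c was 1280 CPM (1241 to 1320), 881 (859 to 905) and 159 (107 to 226), and Grb10 was 388, 239 and 95.1 CPM. Meg3 was 68.2 CPM (59.4 to 77.9), 197 (186 to 208) and 375 (293 to 473). At P7 neuronal-like cells held 14.8 times as much. At P7 the 12 fibroblast markers summed to 2113 CPM and the 10 epithelial markers to 649.9 CPM in glial-like cells, against 477 and 26.2 CPM at E17.5, and their part in the P7 levels was not tested. Meg3 at P7 was 22.7 times the free RNA estimate. The E15.5 to E17.5 step of Meg3 was called, 1 of 9 tested (background 3.72% higher). Mest was 598, 316 and 159 CPM (107 to 226), the P7 interval overlapping those of adventitial-like and deep fibroblasts. With 66 cells at P7, H19 rested on 2 UMIs. Across birth 3 of 10 were lower (background 3.87%).

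Cells resembling interstitial cells of Cajal, the pacemakers of gut muscle, held high levels of several members before birth. The name is loose at E15.5. There the 8 Cajal markers summed to 1222 CPM, the 12 fibroblast markers to 2405 and the 11 smooth muscle markers to 1644. The part of this mix in the levels was not tested. At E15.5 these cells held Igf2 at 817 CPM (777 to 859), H19 at 2428, Dlk1 at 952, Meg3 at 3080, Plagl1 at 771 and Cdkn1c at 2191 CPM. Peg3, at 51.8 CPM, was the lowest of the 11 types compared at that stage. At E17.5 Igf2 was 671 CPM (631 to 714) and Cdkn1c 1574 CPM, and 1 gene, Peg3, was called lower (background 2.91%), at 51.8 and 16.7 CPM. The 23 cells of P7 are too few for a comparison. In them Igf2 was 150.1 CPM (79.9 to 257), H19 646 (488 to 839) and Dlk1 had 0 UMIs.

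Pericyte-like cells, which wrap small vessels, had 7 of the 10 genes lower at the second embryonic stage, E17.5 (background 3.13%). The name covers unlike mixes: the 10 pericyte markers summed to 1885 CPM at E15.5 and 3562 at E17.5, the 11 smooth muscle markers to 3914 and 6531 and the 12 fibroblast markers to 6851 and 7165. The part of these differences in the levels was not tested. Igf2 was 795 CPM (751 to 840) at E15.5 and 300.2 (280 to 321) at E17.5, Dlk1 1473 and 456 CPM, Mest 752 and 191 CPM and Cdkn1c 2505 and 723 CPM. The 3 not called were Meg3, Grb10 and Ndn, each with a lower point value at E17.5. The median ratio was -1.41 over the 10 and -0.04 over all genes tested.

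Genes of the IGF pathway were set beside Igf2. Igf2r, the receptor that takes IGF2 up for breakdown and is itself imprinted, was 332 CPM in adventitial-like fibroblasts at E17.5 and 143 CPM at P7, and 117, 111 and 146 CPM in enterocyte-like cells. Igf1r, the signalling receptor, was 110, 113 and 164 CPM in fibroblast-like cells. Igf1, the related growth factor known for growth after birth, was 144, 360.0 and 284 CPM in them. Igf2bp1, an RNA-binding protein that binds Igf2 transcripts, was 46.9, 19.1 and 0.685 CPM in fibroblast-like cells and 105, 42.7 and 7.40 CPM in epithelial-like cells. Its relative Igf2bp3 was 162, 121 and 116 CPM in epithelial-like cells.

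A second list held 48 other imprinted genes, 47 of them in the tables. At the P7 step 2 of 27 tested were higher and 3 lower in fibroblast-like cells, where 6.89% and 2.41% of all genes were. In smooth-muscle-like cells 1 and 4 of 22 were (background 15.7% and 5.1%), in neuronal-like cells 7 and 2 of 29 (background 13.3% and 3.97%) and in epithelial-like cells 2 and 4 of 22 (background 7.89% and 3.0%). In fibroblast-like cells the lowest ratio was that of Asb4, at 184 and 31.3 CPM. Zim1, a neighbour of Peg3, was 30.2 and 90.7 CPM. In neuronal-like cells the lowest were Dcn, also a fibroblast marker, and Nnat, at 972 and 391 CPM, and the highest was Mirg, a noncoding RNA downstream of Meg3, at 6.88 and 28.2 CPM. In epithelial-like cells Rian, also downstream of Meg3, was 17.9 and 2.68 CPM, and Ins2, an insulin gene, was 178 CPM at E17.5 and 0.0311 CPM at P7. Acinar-like cells of the pancreas were found at E15.5 and P7, and whether the Ins2 UMIs came from pancreatic cells was not tested.

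The genes whose levels ran most alike to a member over 45 sums of cells were taken by Pearson's r of log2(CPM + 10), as a description over sums that share libraries and depth. For Igf2 it was H19 (0.900), with Igf2r second (0.768), and for Meg3 it was Rian (0.957). Dlk1 ran closest to Slc38a4 (0.933), another imprinted gene, which also ran closest to Plagl1 (0.920). For Ndn it was Rtl8a (0.953), for Grb10 Cdc16 (0.908), for Peg3 Cdk14 (0.810) and for Cdkn1c Tceal8 (0.710). Within the list Dlk1 and Meg3 had 0.750 and Plagl1 and Dlk1 0.877, while Igf2 and Peg3 had 0.048.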

How the data were processed

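The authors deposited unnormalized UMI counts, 1 matrix per library, as the file headers and the whole-number values show. The submitters' processing notes name Cell Ranger 7.2.0, mm10 and GRCm38. The 10 genes, the other lists and the marker lists were chosen with earlier results of these data known, and the rules that score clusters and split kinds were set after the data had been seen.

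Scrublet (scanpy 1.11.5, expected rate 6%) marked 243, 453 and 389 doublets, which were removed. All kept cells held at least 500 genes and under 15% mitochondrial UMIs. Each library was clustered by itself without the 10 genes and the other imprinted genes (57 left out), on 2000 variable genes, 30 components and 15 neighbours, with Leiden resolution 1 (leidenalg 0.10.2, igraph 0.11.9, seed 0). Clusters were named from 12 marker lists by the mean of the 5 best marker scores. Each score was the log2 ratio to the median of all clusters with a pseudocount of 20 CPM. Clusters stayed unnamed with under 3 detected markers or a second class within 0.3. They also did when their 10 leading genes held no own marker or more markers of another class. Unnamed cells numbered 112, 556 and 229 at the 3 stages. Fibroblast, muscle and epithelial clusters were split into kinds from further lists, without the chemokine list, and clusters that no list led are summed as other. Here the score was the log2 ratio to the lowest cluster of the class in the same library. For epithelial kinds it was the ratio to the median cluster, and a score of at least 1.5 was needed. Counts were summed per type, so cells are not replicates.

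Limits at 95% are Poisson for CPM, Clopper-Pearson for shares and conditional binomial for ratios, all exact (Python 3.11.15, scipy 1.17.1). Sums under 50 cells were not compared. All 10 genes are named in each main class. Of the other imprinted genes the 2 highest and 2 lowest ratios per class could be named, and of alike genes the 3 highest correlations. The calling was tested on simulated counts. There is 1 library per stage, so depth limits single levels, and the spread between animals is unknown.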

Additional observations from a re-analysis of the deposited data

Results flagged for a closer look

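Meg3 and Peg3 were flagged because they moved in opposite directions across birth in different cell types. From E17.5 to P7 the Meg3 log2 ratio was 1.60 in neuronal-like, -2.59 in epithelial-like and -1.36 in smooth-muscle-like cells, gaps of 4.184 and 2.958. The Peg3 log2 ratio was 2.06 in neuronal-like, -1.85 in epithelial-like and -1.98 in smooth-muscle-like cells, gaps of 3.909 and 4.044. The muscle ratios are those of the whole class, whose mix of kinds differed between the stages. In visceral muscle alone Meg3, at 1072 and 706 CPM, was not called lower, while Peg3, at 97.4 and 44.6 CPM, was. The difference between cell types was not tested, since each stage is 1 library.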

How the results depend on the processing

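Of 129 recomputed counts of called genes, 117 stayed within 1.5 times the reported one, and 727 of 765 recomputed ratios kept their sign. At 1.5-fold, 2 fibroblast genes were called between E15.5 and E17.5 and 2 were higher at P7, and 1 neuronal and 5 epithelial genes were called between E15.5 and E17.5. Keeping all cells gave 6 neuronal genes lower at P7 and 0 epithelial genes called between E15.5 and E17.5. For that epithelial step clustering the libraries together also gave 0, dividing by the median gene ratio 1 and enterocyte-like cells alone 1. For smooth muscle between E15.5 and E17.5, division by the median gene ratio gave 3 and visceral cells alone 1. Subtracting free RNA gave 1 neuronal gene called between E15.5 and E17.5. In visceral muscle alone, against the muscle class, the log2 ratio turned its sign for Mest from E15.5 to E17.5 (0.083) and, across birth, for Dlk1 (0.50) and Plagl1 (0.82). The enterocyte, visceral and adventitial alternatives were chosen after seeing the data. The median gene moved by -0.12 and 0.12 in fibroblast-like, -0.29 and 0.27 in smooth-muscle-like, -0.07 and 0.20 in neuronal-like and -0.13 and 0.06 in epithelial-like cells at the 2 steps. The cause of these changes was not tested. No paired analysis was possible because each stage is 1 library, and for the same reason no replicate could be left out.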
